A study of Mus musculus with 5 samples.

Results

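The loci described here are those of 6 mouse genes whose proteins build, cross-link or protect the extracellular matrix: Lox, Thbs1, Sparc, Postn, Timp3 and Tnc. They were examined as fixed windows of 120 to 210 kb around each gene on the mouse build mm9, and every p300 or c-Jun peak whose centre lay in a window was taken. That gave 84 peaks of the 83829 in all 4 deposited peak lists. Of these, 32 were p300 peaks without pioglitazone and 23 with it, and 15 were c-Jun peaks without pioglitazone and 14 with it.

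The peaks come from chromatin immunoprecipitation followed by sequencing (ChIP-seq) in passage 11 cells of MS5, a long-established stromal line from mouse bone marrow. All ChIP libraries were from cells given TGF-β1 at 10 ng/mL for 5 h, so none shows the loci without this cytokine. In 1 library for each antibody the cells also received pioglitazone at 20 ng/mL, an agonist of the nuclear receptor PPARγ. The series has 5 samples, 4 of them ChIP libraries and 1 a pooled input for which no file was used. Each combination of antibody and treatment is 1 library of 1 cell line, so no difference between treatments has a replicate check and no p-value is given. The lists hold positions only, so the cell type could not be checked against marker expression.

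TGF-β1 is the cytokine best known for driving fibroblasts and stromal cells to lay down matrix, and excess matrix in the marrow is the mark of myelofibrosis, which the series title names. Lox encodes lysyl oxidase, the enzyme that cross-links collagen and elastin. Thbs1 (thrombospondin 1), Sparc (osteonectin), Tnc (tenascin C) and Postn (periostin) encode matricellular proteins, which sit in the matrix and act on cells and growth factors more than they bear load; thrombospondin 1 can activate latent TGF-β. Timp3 encodes a matrix-bound inhibitor of metalloproteinases. p300 is a histone acetyltransferase and coactivator found at active enhancers and promoters, and c-Jun is a subunit of the transcription factor AP-1.

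Windows and genes are not the same thing. In the RefSeq gene table of GRCm38.p6, used for gene order only, the nearest protein-coding neighbours of Lox are Srfbp1 and Zfp474, those of Thbs1 are Rasgrp1 and Fsip1, and those of Sparc are Fat2 and Atox1. Postn lies between Trpc4 and Supt20, and Tnc between Tnfsf8 and Pappa. Timp3 overlaps Syn3. No mm9 annotation or sequence was used here, so peaks are given by mm9 position, counted from 1, and are not assigned to a promoter, exon, intron or target gene.

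RefSeq promoter sequences, which belong to GRCm38.p6, were found for 4 of the 6 genes (Sparc, Timp3, Postn and Tnc), with 6 annotated starts in all. The 250 bases before each start were searched on both strands for 2 motifs. The first was the AP-1 element TGANTCA, which c-Jun dimers are known to bind. The second was the Smad-binding letters CAGACA, which a search of the other strand finds as TGTCTG. The AP-1 letters were in 0 of the 6 windows, against 6.75% of 32851 promoter windows of the same length. The Smad letters were in 2 of 6 (Sparc and 1 of the 2 Tnc starts), against 17.1%. The 2 Tnc windows overlap, so the 6 are not separate sequences, and both counts are too few to set against these shares. The sequences of Sparc, which has such a match, and of Timp3, which has none and whose window holds the c-Jun peak nearest the start of a list, are shown with any match in capitals.
Sparc, chr11:55420081-55420330 (GRCm38.p6, minus strand): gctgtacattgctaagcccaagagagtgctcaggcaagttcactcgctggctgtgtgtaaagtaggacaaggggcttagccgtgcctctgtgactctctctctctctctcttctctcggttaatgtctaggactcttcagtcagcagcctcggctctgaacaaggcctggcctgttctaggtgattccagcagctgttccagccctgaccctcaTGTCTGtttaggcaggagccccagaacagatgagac
Timp3, chr10:86300162-86300411 (GRCm38.p6, plus strand): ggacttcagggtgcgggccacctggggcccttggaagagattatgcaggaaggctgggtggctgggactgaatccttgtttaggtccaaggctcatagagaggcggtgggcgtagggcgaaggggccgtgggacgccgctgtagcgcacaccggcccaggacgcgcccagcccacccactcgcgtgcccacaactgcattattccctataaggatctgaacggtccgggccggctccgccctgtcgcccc
The Sparc match ended 31 bases before the start. A match is a run of letters and not a binding site, and whether any listed peak lies on these promoters was not tested, since the peaks are on another build.

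Over the 6 windows, fewer p300 peaks were listed with pioglitazone than without it, and nearly as many c-Jun peaks. With both p300 lists at the length of the shorter, the order turned, to 21 p300 peaks without and 23 with pioglitazone. At equal lengths c-Jun had 14 in each. The p300 order did not turn under the other shortened settings. With all 4 lists at the length of the shortest, p300 had 17 peaks without and 15 with pioglitazone. In the first 50% of every list it had 19 and 15. At full length the p300 count with pioglitazone was 71.9% of that without it, and the length of the whole p300 list with pioglitazone was 69.9% of the other. For c-Jun the windows gave 93.3% and the whole list 78.2%. The windows were denser in peaks than the genome as a whole. p300 peaks without pioglitazone numbered 35.6 per Mb in the windows and 11.9 per Mb over all chromosomes, and c-Jun peaks 16.7 and 6.46 per Mb. With pioglitazone the values were 25.6 and 8.34 per Mb for p300 and 15.6 and 5.05 per Mb for c-Jun. The genome value takes in gene-poor regions, so the densities describe the windows and set them against no other genes.

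The Lox window, chromosome 18 from 52.62 to 52.74 Mb, held the most peaks: 10 for p300 without and 8 with pioglitazone, then 6 and 5 for c-Jun. That is 8.33 p300 peaks per 100 kb without pioglitazone. The Sparc window, chromosome 11 from 55.15 to 55.29 Mb, came next for p300 with 7 and 4 peaks, but had 1 c-Jun peak in each treatment. The Thbs1 window, chromosome 2 from 117.88 to 118.01 Mb, held 6 and 2 p300 peaks, and c-Jun had 2 in each treatment. The Timp3 window, chromosome 10 from 85.71 to 85.87 Mb, was the only 1 of the 6 with more p300 peaks with pioglitazone, 5 against 4, and held 3 c-Jun peaks in each. The Tnc window, chromosome 4 from 63.56 to 63.77 Mb, is the widest, with 4 and 3 p300 peaks and 2 c-Jun peaks in each. The Postn window, chromosome 3 from 54.11 to 54.25 Mb, held 1 p300 and 1 c-Jun peak in both treatments, at 1 site. At 0.714 p300 peaks per 100 kb, it was the only window below the genome value of 1.19 without pioglitazone.

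**Figure D1:**
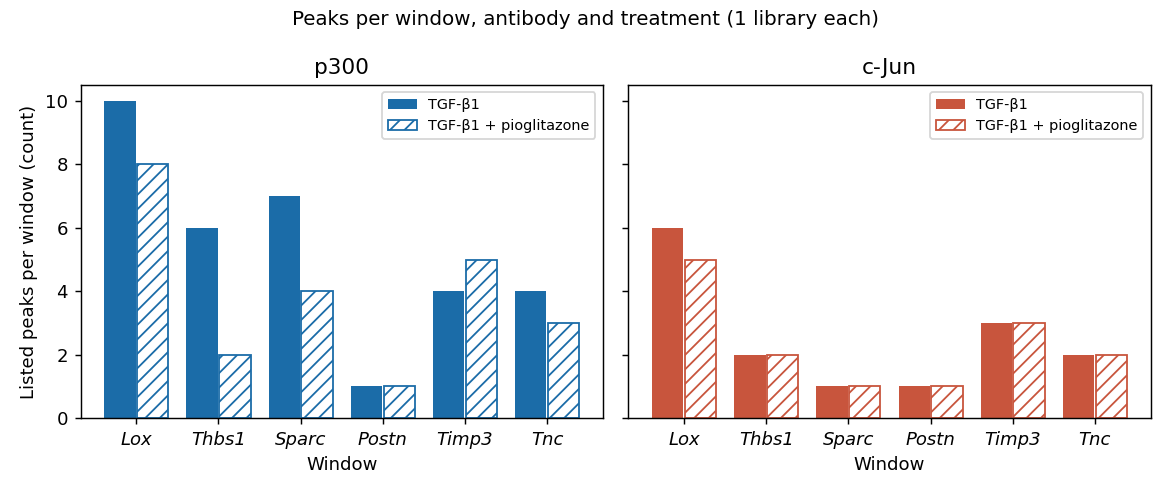
Number of listed peaks (vertical axis) in each gene window (horizontal axis), for p300 on the left and c-Jun on the right. Solid bars are the library with TGF-β1 alone and hatched bars the library with TGF-β1 and pioglitazone, 1 library each, so there are no error bars. The p300 bars differ most at Thbs1 (6 and 2) and Sparc (7 and 4), while the c-Jun bars differ at Lox only (6 and 5).

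These counts depended on how far down the lists peaks were read. What set the order of the rows is not stated anywhere in the sources, but the row number is the only order the lists carry. With both p300 lists at the length of the shorter, the Thbs1 window held 2 p300 peaks in each treatment and the Lox window 8 in each, and the Sparc window held 3 without and 4 with pioglitazone. The Timp3 window kept 4 and 5 p300 peaks at these lengths. With all 4 lists at the length of the shortest, or only the first 50% of every list, it held 4 without and 3 with pioglitazone, so its difference turned too. At equal lengths, the p300 rows removed are the last of the list without pioglitazone. The shorter settings also remove the last rows of the p300 list with pioglitazone.

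Where the windows were drawn also mattered for single genes. In the 20 kb beyond either edge of all 6 windows p300 had 8 peaks without and 5 with pioglitazone, and c-Jun had 1 in each treatment. In the 20 kb just inside the edges p300 had 7 and 5 and c-Jun 3 and 1. Postn was the most exposed. It had 3 p300 peaks without and 2 with pioglitazone just outside its window, against 1 in each treatment within it.

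A peak without pioglitazone is called retained here when a peak of the same antibody with pioglitazone overlaps it by at least 1 bp, and lost otherwise. A peak with pioglitazone that overlaps none without it is called gained. Of the 32 p300 peaks in the windows 17 were retained, 53.1% (exact 95% interval 34.7 to 70.9), against 51.1% of the whole list. From the 10% steps of the list in which these 32 peaks stood, 18.2 retained peaks would be counted. Of the 23 p300 peaks with pioglitazone 6 were gained, 26.1% (10.2 to 48.4), against 26.9% of the list. The p300 shares in the windows were thus near the background. Of the 15 c-Jun peaks 11 were retained, 73.3% (44.9 to 92.2), against 45.7% of the list, and the steps of the list gave 9.96. Of the 14 c-Jun peaks with pioglitazone 3 were gained, 21.4% (4.66 to 50.8), against 41.6% of the list, and the steps gave 4.51. The c-Jun intervals are wide and cover counting error only, and neighbouring peaks of 1 window are not independent.

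Joined where they overlapped, the 84 peaks made 41 sites. All 4 lists held 10 of them, while 4 were in 3 lists, 5 in 2 and 22 in 1. As shares, 24.4% were in all 4 lists and 53.7% in 1, where the 44718 sites joined from the whole lists gave 12.9% and 51.3%. Window peaks stood early, at a median of 36.7% of the way down for p300 without and 30.2% with pioglitazone. For c-Jun the medians were 21.3% without and 32.5% with it. The shares of joined sites were not set beside list position. Every window had at least 1 site in all 4 lists: 3 at Lox, 2 each at Timp3 and Tnc, and 1 each at Thbs1, Sparc and Postn. The 13 sites with p300 without pioglitazone only (31.7%, against 25.7% of all joined sites) were spread over Sparc (5), Thbs1 (4), Lox (2), Timp3 (1) and Tnc (1). The 6 sites with p300 with pioglitazone only (14.6%, against 10.6%) lay at Timp3 (3), Sparc (2) and Thbs1 (1).

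**Figure D2:**
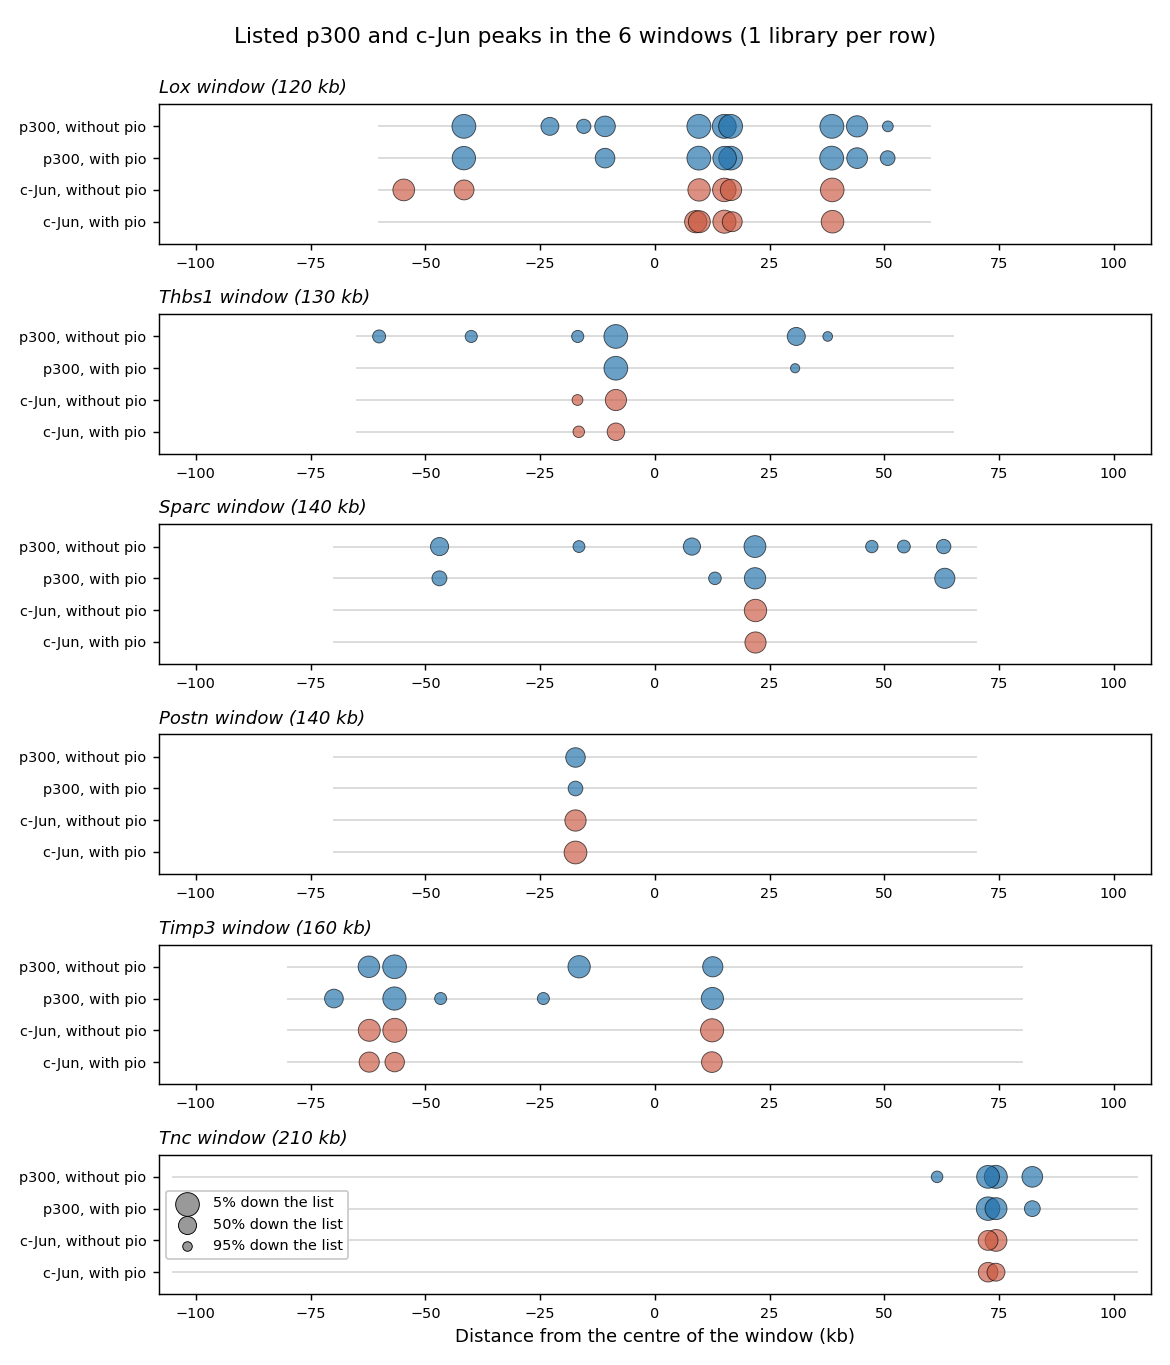
Each panel is 1 gene window, with distance from the window's centre in kb on the horizontal axis and 1 row per library; blue circles are p300 peaks and red circles c-Jun peaks. A larger circle stands nearer the first row of its list, as the key in the bottom panel shows. The 10 sites in all 4 lists appear as columns of circles in all 4 rows. Not all of these circles are large: the Postn p300 peak with pioglitazone stood 71.0% down its list. At this scale a neighbouring pair of Lox sites also looks like a column in all 4 rows, though its c-Jun peaks did not overlap. Lost and gained p300 peaks with centres 243 bp apart at Sparc and 244 bp apart at Thbs1 look matched too. Most p300 circles without a counterpart in the other treatment are small.

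At the Lox window, 5 p300 peaks stood in rows 821 to 1097 of 31466, the first 3.49% of the list without pioglitazone. All 5 were retained, in rows 709 to 1660 of 21994. The site at chromosome 18, 52689469 to 52689805, was in row 821 without and row 802 with pioglitazone for p300, and in rows 2797 and 2675 for c-Jun. The site at 52695002 to 52695315 was in rows 920 and 1322 for p300 and in rows 1174 and 1398 for c-Jun, and its c-Jun peak was the first of all c-Jun peaks with pioglitazone in the 6 windows. The site at 52718416 to 52718827 was in rows 984 and 709 for p300 and in rows 915 and 1925 for c-Jun. These 3 sites were in all 4 lists and lay within 29 kb.

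The other 2 of the 5 early p300 sites at Lox kept p300 and were without an overlapping c-Jun peak when pioglitazone was present. At 52696373 to 52696712, p300 stood in rows 961 and 1038, and the c-Jun peak without pioglitazone (row 4331) was lost. A gained c-Jun peak at 52696746 to 52696980, in row 4888, had its centre 275 bp from that of the lost one, so c-Jun was listed within 500 bp in both treatments. At 52638262 to 52638554, p300 stood in rows 1097 and 1660, and the c-Jun peak (row 6227 of 17044) was lost with the nearest c-Jun peak of the other list 50477 bp away. A further lost c-Jun peak at 52625162 to 52625410, in row 3750, overlapped no p300 peak and had no c-Jun peak of the other treatment nearer than 63621 bp. A gained c-Jun peak at 52688790 to 52689024 stood in row 2348 of 13325, with its centre 730 bp from the nearest c-Jun peak without pioglitazone. Listed c-Jun in the Lox window thus lay over a shorter stretch with pioglitazone, where both c-Jun peaks on the lower-coordinate side had no counterpart. This depends on the window: in the 20 kb beyond its edges, c-Jun had 1 peak with pioglitazone and 0 without. Windows 20 kb longer at both ends held 6 c-Jun peaks in each treatment, and windows 20 kb shorter held 4 without and 5 with pioglitazone. The 2 lost p300 peaks at Lox stood in rows 15954 and 23128.

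Thbs1 had 1 site in all 4 lists, at chromosome 2, 117936367 to 117936639. Its p300 peak was in row 1359 without and row 995 with pioglitazone, and its c-Jun peak in row 4517 of 17044 and row 7089 of 13325. The other 5 p300 peaks without pioglitazone were lost, and stood in rows 15686 to 29747, between 49.9% and 94.5% of the way down the list. For 1 of them, at 117975688 to 117975934, a gained p300 peak lay at 117975454 to 117975680, with centres 244 bp apart. The second c-Jun place, at 117928012 to 117928536, was listed in both treatments as peaks that did not overlap, with centres 283 bp apart, in row 15344 without and row 11592 with pioglitazone. The p300 peak listed there without pioglitazone (row 26475) was among those lost.

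Sparc also had 1 site in all 4 lists, at chromosome 11, 55241648 to 55241942, with p300 in rows 6534 and 5526 and c-Jun in rows 2778 and 3541. All its other sites were p300 without c-Jun. The site at 55172948 to 55173212 was in both p300 lists, in rows 15509 and 15318. The 5 lost p300 peaks stood in rows 17467 to 26872. Of these, the one at 55282816 to 55283062 (row 22940) had a gained p300 peak at 55283069 to 55283295 (row 7578), with centres 243 bp apart. The other gained peak at Sparc, in row 18045, had no p300 peak without pioglitazone nearer than 5027 bp.

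Tnc had a pair of sites in all 4 lists, with centres 1713 bp apart. The first, at chromosome 4, 63737483 to 63737731, was in rows 4021 and 1447 for p300 and rows 6307 and 5213 for c-Jun. The second, at 63739171 to 63739469, was in rows 3518 and 4435 for p300 and rows 3638 and 6795 for c-Jun. Without pioglitazone the second site stood ahead of the first for both antibodies, and with pioglitazone the first stood ahead of the second for both. The site at 63747120 to 63747366 was p300 only, in rows 9583 and 14180. All listed peaks at Tnc lay in a stretch of 21.0 kb, from the first start to the last end, of the 210 kb window.

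The single Postn site, at chromosome 3, 54162398 to 54162737, held p300 in row 12358 without and row 15621 with pioglitazone. Its c-Jun peak was in row 4369 of 17044 without and row 1734 of 13325 with pioglitazone. The centres of the 2 c-Jun peaks lay 98 bp apart, the most among retained c-Jun peaks of the windows.

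Timp3, the inhibitor, had 2 sites in all 4 lists. At chromosome 10, 85733136 to 85733456, the c-Jun peak stood in row 447 of 17044 without pioglitazone, the earliest c-Jun row in the 6 windows, and in row 5299 of 13325 with it. Among the 1547 retained c-Jun peaks of the first 10% of the list, 50 (3.23%) stood in so late a row with pioglitazone, and the median row was 912. The p300 peak of this site was in rows 1500 and 2057. At 85802311 to 85802745, c-Jun was in rows 1669 and 4037, and p300 in rows 10707 and 3935. In the same first 10% of c-Jun peaks, 7.24% stood as late as row 4037. Some retained peaks moved far the other way. Of the retained p300 peaks in its 10% step, 97.1% stood as late as row 3935. For the Tnc p300 peak in rows 4021 and 1447 this share was 97.8%, and for the Postn c-Jun peak 90.1%.

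The remaining Timp3 sites differed between the p300 lists. The p300 peak at 85773375 to 85773621 was lost, and so was the one at 85727567 to 85727813, in rows 5297 and 7487 of 31466. They were the only lost p300 peaks of the 6 windows in the first 25% of the list, with no p300 peak of the other list nearer than 7788 and 5559 bp. At the second of these, c-Jun was listed in both treatments, in rows 3424 and 4614. The 3 gained p300 peaks at Timp3 stood in rows 9983, 18612 and 18613 of 21994. None overlapped c-Jun.

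Over all windows, 12 of the 15 lost p300 peaks stood in the last 50% of their list, and the median was 79.8% of the way down. That is 80.0%, where 74.0% of all 15389 lost p300 peaks stood in the last 50% and the median was 69.5%. Of the 6 gained p300 peaks 4 stood in the last 50%, 66.7% against 77.8% of all gained p300 peaks. For 2 of the 15 lost and 2 of the 6 gained p300 peaks, and for 2 of the 4 lost and 2 of the 3 gained c-Jun peaks, a peak of the same antibody in the other treatment had its centre within 500 bp. Over the whole lists this held for 5.21% of lost and 14.0% of gained p300 peaks, and for 4.35% of lost and 7.34% of gained c-Jun peaks; the counts in the windows are too few to set a share against these. Depth and the strength of enrichment of the libraries are unknown, and their part in which late rows were listed was not tested.

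Most c-Jun peaks in the windows lay on p300. Without pioglitazone 14 of 15 overlapped a p300 peak, 93.3% (68.1 to 99.8), against 69.4% of the whole c-Jun list, and 12.4 would be counted from their steps of the list. With pioglitazone 10 of 14 did, 71.4% (41.9 to 91.6), against 55.5%, where the steps gave 9.22. Seen from p300, 14 of 32 peaks without pioglitazone overlapped c-Jun, 43.8% (26.4 to 62.3), against 37.6%, where the steps gave 13.9. With pioglitazone 10 of 23 did, 43.5% (23.2 to 65.5), against 33.7%, where the steps gave 9.91. Of the 14 p300 peaks with c-Jun, 12 were retained, 85.7% (57.2 to 98.2), where the whole list gave 74.1%. Of the 18 p300 peaks without c-Jun, 5 were retained, 27.8% (9.69 to 53.5), where the whole list gave 37.2%. Over the whole list, p300 peaks with c-Jun stood earlier, at a median of 28.2% of the way down against 62.0%. Within the 10% steps of each class, 12.1 and 6.04 retained peaks would be counted. Of the 14 c-Jun peaks with p300, 11 were retained, 78.6% (49.2 to 95.3), where the whole list gave 56.3% and the steps gave 9.84. The 1 without p300 was lost, where 21.5% of such c-Jun peaks were retained.

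**Figure D3:**
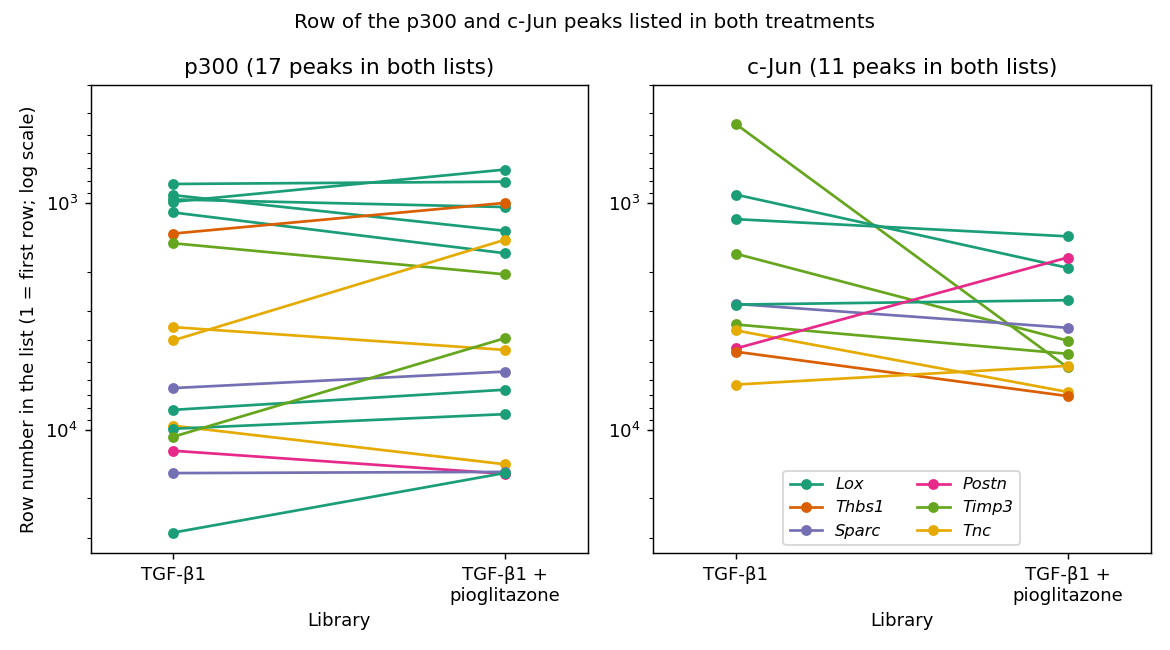
Row number (vertical axis, log scale, first rows at the top) without and with pioglitazone for each peak listed in both treatments, with p300 on the left and c-Jun on the right; lines join the same peak and colours mark the gene. Of the 8 Lox p300 lines 5, and the Thbs1 p300 line, lie between rows 709 and 1660 in both libraries, while the Timp3 c-Jun line runs from row 447 to row 5299 and the Postn c-Jun line from row 4369 to row 1734.

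The order of the retained peaks was also set side by side, with both lists of an antibody at the length of the shorter. Rows from separate lists give an order within each list and no measure of binding. Of the 11 retained c-Jun peaks, 8 were in a later row with pioglitazone, 72.7% (39.0 to 94.0), against 46.6% of 7049 retained c-Jun peaks, and 6.22 would be counted from their steps of the list. The 3 in an earlier row were at Postn, Tnc and Lox. Of the 16 retained p300 peaks within the shortened lists, 7 were in a later row, 43.8% (19.8 to 70.1), against 46.6% of 14215. The c-Jun interval takes in the value of the whole list, and all 3 Timp3 peaks are among the 8. Without the Timp3 window 5 of 8 were in a later row. Retained peaks overlap by definition, which by itself keeps their centres close. The median distance between centres was 15 bp for p300 and 21 bp for c-Jun.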

How the data were processed

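Peaks of p300 and c-Jun ChIP-seq libraries of TGF-β1-treated MS5 cells, 1 library for each antibody with and without pioglitazone, were read from the 4 deposited lists. The build mm9, HOMER, SAMtools (version 1.9) and Bowtie2 (version 2.3.4.3) are named in the submitters' processing notes. How duplicates, the input and the peak caller were handled is not stated there. The deposited score is 1 in every row, and each deposited list has a single peak width (247 and 227 bp for p300 and 249 and 235 bp for c-Jun, without and with pioglitazone). Depth is unknown.

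Peaks with a centre in a window were kept, and overlaps were computed from the whole lists in Python (version 3.11.15, numpy 2.4.6, pandas 2.3.3, scipy 1.17.1). They equalled those of bedtools (version 2.31.1) in 12 of 12 pairs of lists and were tested on simulated lists. Shares have exact Clopper-Pearson 95% intervals. Counts given from 10% steps of a list sum the whole list's share in each peak's step. The members, windows and lists were chosen with earlier results of these data known. All 6 genes are described. Sites named are those in all 4 lists, the earliest of each antibody, and lost or gained peaks in the first 25% of a list; the others named were chosen after their values were seen. Windows 20 kb shorter or longer, shortened lists and other overlap rules were tried. The comparison of row order was added after the lists were seen.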

Additional observations from a re-analysis of the deposited data

How the results depend on the processing

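With 1 library per group, nothing here was tested, and leaving out a replicate was not possible. No paired analysis was possible because each group holds 1 library. Shortening the lists moved the p300 counts most, since it leaves fewer peaks. The 32 p300 peaks without pioglitazone became 21 at equal list lengths. They became 17 with all 4 lists at the length of the shortest and 19 in the first 50% of every list. The 23 with pioglitazone stayed at 23 at equal lengths, above the 21 without it. They became 15 under each of the last 2 settings, below the count without it in both. The retained p300 share was 76.2% at equal lengths (whole list 64.6%) and 76.5% at the shortest length (whole list 69.2%). With windows 20 kb shorter at both ends, all 12 c-Jun peaks without pioglitazone overlapped p300, 100%. The c-Jun counts and the retained c-Jun share stayed within 1.5 times or within the interval under every alternative run.

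For single genes, the difference with minus without pioglitazone changed sign in 5 of 60 cases: 1 for c-Jun at Lox with shorter windows, 1 for p300 at Sparc at equal lengths and at the shortest length, and -1 for p300 at Timp3 at the shortest length and in the first 50%. A further 21 of the 60 differences moved without a change of sign, counting those that came to or left 0, and 34 were the same. Of 120 counts for single genes, 97 stayed within 1.5 times. With each window left out in turn, 62.5% to 80.0% of retained c-Jun peaks were in a later row. The unknown depth and the lack of peak heights limit every count.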
